A study of Mus musculus with 36 samples.

Results

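CXC chemokines are small secreted proteins that draw leukocytes into tissue, and 8 of their genes were followed here in lung macrophages and monocytes. They were Cxcl1, Cxcl2, Cxcl3, Cxcl9, Cxcl10, Cxcl13, Cxcl15 and Cxcl16, chosen by gene symbol from the 27562 genes of the expression table. Each of the 8 symbols had 1 entry, and 7 of the 8 passed the filter of a mean of at least 1 FPKM (fragment counts scaled for transcript length and sequencing depth), in alveolar macrophages (AΦ) and in monocytes alike. Cxcl15 did not pass in either and was not tested.

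The libraries came from male C57BL/6J mice (CD45.2) that were irradiated with the chest under a lead shield, given busulfan and then transplanted with marrow of B6.SJL mice (CD45.1), so every group carried this treatment. The mice breathed filtered air (FA) or concentrated fine particulate matter (PM2.5) for 4-weeks or 32-weeks, and AΦ and monocytes were sorted from their lungs. There were 36 libraries in 12 groups of 3. TR-AΦ, the tissue-resident AΦ of the CD45.2 host, were sequenced at 4-weeks and 32-weeks in FA and PM2.5, and BM-AΦ, which descend from the CD45.1 marrow, at 32-weeks in FA and PM2.5. Monocytes were sequenced at 4-weeks in FA and PM2.5 (CD45.2 cells) and at 32-weeks as 2 populations in FA and PM2.5, numbered Mono1 and Mono2 in the labels. Mono1 was read as CD45.1 and Mono2 as CD45.2, by analogy with the key for AΦ, and their origin is no firmer than this reading. Mice at 32-weeks were older as well as longer in the chambers, and age, length of exposure and any difference in day of sorting or sequencing cannot be told apart. The methods describe mice chosen per exposure and time, from whose lungs each population was sorted, so libraries of different populations may share a mouse. The labels do not tie libraries to mice, and comparisons between cell types and between origins treated them as independent. FPKM hold no read counts, so the depth behind each value is unknown.

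These genes divide by the cells that they call. Cxcl1, Cxcl2 and Cxcl3 attract neutrophils through Cxcr2 and are switched on in macrophages by NF-kB, the transcription factor that also drives Tnf. Cxcl9 and Cxcl10 are induced by interferons and attract activated T cells and natural killer cells through Cxcr3. Cxcl13 attracts B cells through Cxcr5 and organises lymphoid follicles. Cxcl15, also called lungkine, is a product of lung epithelium. Cxcl16 is made as a transmembrane protein that binds oxidised lipoprotein and Cxcr6, and Adam10 and Adam17 shed it from the cell surface.

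In the GENCODE M21 annotation of GRCm38 (mm10), 7 of the 8 genes lie on chromosome 5. Cxcl3 (chr5:90786103-90789600), Cxcl15 (chr5:90794534-90803067), Cxcl1 (chr5:90891241-90893115) and Cxcl2 (chr5:90903871-90905938) are neighbours on the plus strand, Cxcl9 (chr5:92321347-92328079) and Cxcl10 (chr5:92346638-92348889) are neighbours on the minus strand, and Cxcl13 lies at chr5:95956951-95961068 on the plus strand. Cxcl16 lies at chr11:70453983-70459984 on the minus strand. The table names them by Ensembl gene: ENSMUSG00000029379.10 is Cxcl3, ENSMUSG00000029375.6 Cxcl15, ENSMUSG00000029380.11 Cxcl1, ENSMUSG00000058427.10 Cxcl2, ENSMUSG00000029417.9 Cxcl9, ENSMUSG00000034855.13 Cxcl10, ENSMUSG00000023078.6 Cxcl13 and ENSMUSG00000018920.11 Cxcl16. Cxcl10 shares 133 of its 2252 exon bases with Art3 on the other strand, and Art3 was at most 0.996 FPKM in any library. Cxcl16 shares 552 of its 3021 exon bases with Zmynd15, which was at most 9.16 FPKM. Whether strand was used in counting is not given in the sources used here, so reads from the shared bases cannot be assigned.

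The promoters of Cxcl1, Cxcl2, Cxcl3 and Cxcl10 are shown because 3 of these genes fell together over time in AΦ, and because Cxcl3, a close neighbour with a like promoter, did not pass the test. The sequences are from RefSeq (GRCm38.p6), 5′ to 3′ on the strand of the gene. Capitals mark matches to the NF-kB consensus and, in Cxcl10, to the interferon-stimulated response element (ISRE, letters GAAANNGAAA).
Cxcl1, chr5:90891125-90891240, plus strand: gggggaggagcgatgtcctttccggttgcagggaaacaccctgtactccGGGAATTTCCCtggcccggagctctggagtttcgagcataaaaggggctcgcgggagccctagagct
Cxcl2, chr5:90903779-90903870, plus strand: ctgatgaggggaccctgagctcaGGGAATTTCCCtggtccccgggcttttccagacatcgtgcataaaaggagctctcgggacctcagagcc
Cxcl3, chr5:90785981-90786100, plus strand: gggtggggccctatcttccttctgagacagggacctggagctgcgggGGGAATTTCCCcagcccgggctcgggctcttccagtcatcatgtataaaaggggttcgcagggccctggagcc
Cxcl10, chr5:92348890-92349109, minus strand: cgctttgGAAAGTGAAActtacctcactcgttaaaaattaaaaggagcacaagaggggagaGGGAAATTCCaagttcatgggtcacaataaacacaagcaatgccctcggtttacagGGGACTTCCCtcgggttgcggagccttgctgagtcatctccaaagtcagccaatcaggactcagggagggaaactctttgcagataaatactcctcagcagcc
An NF-kB consensus match, sought on both strands in the 250 bases before the start, was present in 3.9% of 32851 promoters in the table. Its first base, counted from the RefSeq start, which lies inside the GENCODE gene for Cxcl1 and Cxcl2 and therefore beyond the stretch shown, was at -71 in Cxcl1, at -97 in Cxcl2 and at -73 in Cxcl3, with an overlapping match on the other strand in each, and at -159 and -103 in Cxcl10. The ISRE match of Cxcl10 began at -213, and 2.98% of promoters held one. An AP-1 motif (TGANTCA, which reads the same on both strands, in 6.75% of promoters) began at -74 in Cxcl10. Promoters of Cxcl9, Cxcl13 and Cxcl15 held no NF-kB consensus match in this window. These matches are letters in the sequence and were not measured as binding.

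Summed AΦ and monocyte markers separated the AΦ libraries from the monocyte libraries. The summed level of 13 AΦ markers was 6992 to 14613 FPKM in the AΦ libraries and 270.4 to 1641 FPKM in the monocyte libraries. The sum of 12 monocyte markers was 2085 to 6345 FPKM in monocytes and 113 to 624 FPKM in AΦ. Among the monocytes, 2 sets of libraries stood apart. The 4-week libraries numbered 2 had a summed level of 12 neutrophil markers of 433 FPKM in FA and 1221 FPKM in PM2.5, against 37.6 to 134.9 FPKM in the other monocyte libraries, although the sort removed Ly6G+ cells. S100a9, which codes for a calcium-binding protein, was at 248 and 792 FPKM in these 2 libraries. The CD45.2 monocytes of 32-weeks stood apart in Cd163, a marker of interstitial macrophages, the macrophages of the lung wall. Cd163 was at 29.3 to 130.3 FPKM in them, against 2.60 to 5.45 FPKM in CD45.1 monocytes and 0.0784 to 3.48 FPKM at 4-weeks. Their summed level of 11 such markers, 1537 to 4105 FPKM, overlapped the 975 to 1744 FPKM of CD45.1 monocytes. This sum exceeded that of monocyte markers in FA replicate 0 (4105 against 2085 FPKM) and PM2.5 replicate 1 (3667 against 2302 FPKM). In the other CD45.2 libraries of 32-weeks the monocyte sum was higher. Both lists hold Ccr2 and Cx3cr1. Among AΦ, PM2.5 TR-AΦ replicate 2 of 4-weeks stood furthest apart. Its summed level of interstitial macrophage markers was 728 FPKM, against 29.6 to 388 FPKM in the other AΦ libraries. It had the highest monocyte (624 FPKM) and neutrophil (76.1 FPKM) sums, and the highest Cxcl3 and Cxcl13, of the AΦ. FA TR-AΦ replicate 2 of 4-weeks had the next highest monocyte (598 FPKM) and neutrophil (37.3 FPKM) sums, and an interstitial macrophage sum of 271 FPKM. Cxcl3 was at 32.8 FPKM in that FA library and at 34.0 FPKM in the PM2.5 library. In bulk samples, fewer cells of a type and less RNA per cell cannot be told apart.

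**Figure D1:**
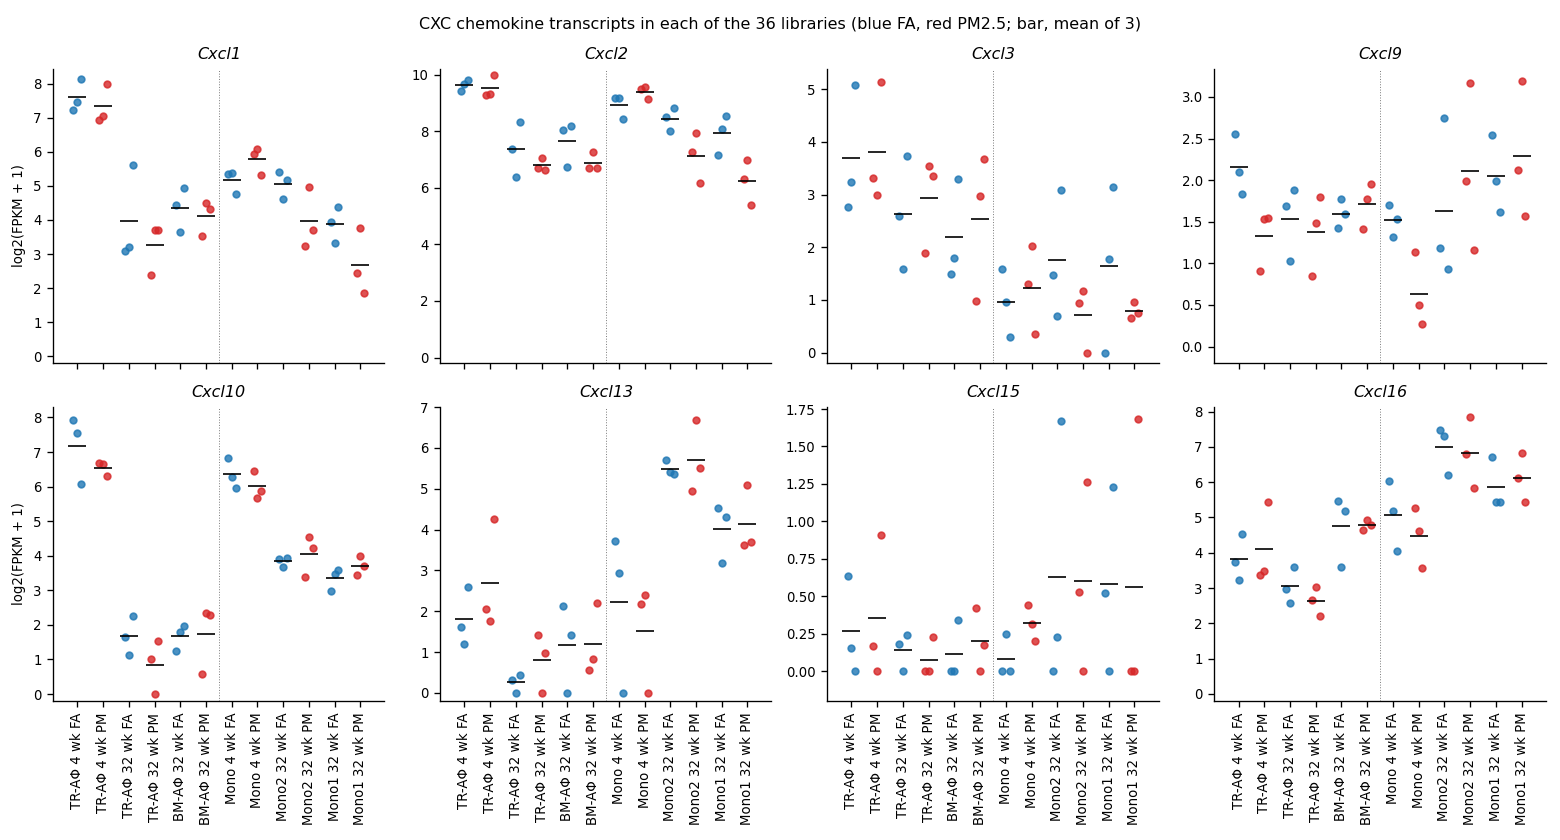
Level of each of the 8 CXC chemokine genes, as log2(FPKM + 1), in the 36 libraries, with FA in blue, PM2.5 in red and a bar at the mean of 3 libraries. The dotted line divides AΦ (left) from monocytes (right), and the vertical scale differs between panels. Cxcl10 is high in the 4-week groups, and Cxcl13 and Cxcl16 are highest in 32-week monocytes.

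Cxcl2 was the most abundant of the 8 transcripts in every group, at 40.4% to 82.6% of their summed FPKM. In TR-AΦ of FA mice at 4-weeks its mean of 803 FPKM ranked 251 among the 27562 genes. In 4-week TR-AΦ it was followed by Cxcl1 and Cxcl10, while Cxcl3, Cxcl9, Cxcl13 and Cxcl16 had means of 1.56 to 20.7 FPKM. In 32-week CD45.2 monocytes Cxcl16 and Cxcl13 came next after Cxcl2.

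Over time, Cxcl1, Cxcl2 and Cxcl10 fell between 4-weeks and 32-weeks in FA and in PM2.5 mice, and no member rose. That was 3 of 7 members tested in each exposure, where 0.782% of the 12665 genes tested were called in FA and 1.05% in PM2.5 (limma, adjusted p under 0.05). The median change of the 7 members was -1.55 on the log2(FPKM + 1) scale in FA and -1.89 in PM2.5, against 0.01 and 0.03 for all genes tested. FA and PM2.5 groups are separate mice, and each exposure had its own 4-week group.

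Cxcl1 was at 148, 173 and 277 FPKM in the 3 TR-AΦ libraries of FA mice at 4-weeks and at 7.54, 8.24 and 47.8 FPKM at 32-weeks. In PM2.5 mice it was at 120, 133 and 255 FPKM at 4-weeks and at 4.27, 12.1 and 11.95 FPKM at 32-weeks. No 32-week library reached the lowest 4-week library of its exposure. The share of all genes separated in this way was not counted over time, here or for the members below. The mean was 9.42-fold lower at 32-weeks in FA (log2 change -3.62, SE 0.61, n = 3 and 3, limma adjusted p = 0.0102) and 17.96-fold lower in PM2.5 (-4.06, SE 0.61, adjusted p = 0.00425). The FA call was lost without 32-week replicate 0, at -3.19 with an adjusted p of 0.0563. With only the groups compared, neither call was kept (adjusted p = 0.271 in FA and 0.125 in PM2.5).

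Cxcl2 was at 688, 821 and 900 FPKM in TR-AΦ of FA mice at 4-weeks and at 165, 82.8 and 320 FPKM at 32-weeks. In PM2.5 mice the values were 623, 637 and 1008 FPKM at 4-weeks and 102, 131 and 99.0 FPKM at 32-weeks. Both pairs of groups were without overlap, which has no background beside it. The mean was 4.24-fold lower in FA (log2 change -2.28, SE 0.43, limma adjusted p = 0.0215) and 6.82-fold lower in PM2.5 (-2.73, SE 0.43, adjusted p = 0.00638). The FA call was kept without 32-week replicate 2 alone. Leaving out 4-week replicate 0, 1 or 2 or 32-week replicate 0 or 1 gave changes of -2.39, -2.26, -2.19, -2.28 and -1.79 and adjusted p of 0.0710, 0.0953, 0.0556, 0.0773 and 0.0714 in that order.

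Cxcl3, which shares the receptor of Cxcl1 and Cxcl2, was lower in level and did not pass the test over time in any population. TR-AΦ of FA mice had 5.83, 8.43 and 32.8 FPKM at 4-weeks and 5.03, 1.99 and 12.3 FPKM at 32-weeks. In PM2.5 mice they had 8.92, 6.94 and 34.0 FPKM at 4-weeks and 2.69, 10.7 and 9.24 FPKM at 32-weeks. At each exposure the groups overlapped, and replicate 2 of the 4-week groups was the highest library.

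The fall of Cxcl10, the interferon-inducible T-cell attractant, was the largest of the family. In PM2.5 mice, TR-AΦ had 102, 100.3 and 77.7 FPKM at 4-weeks and 1.03, 0 and 1.87 FPKM at 32-weeks, a 96.3-fold lower mean (log2 change -5.70, SE 0.54, limma adjusted p = 0.000117). In FA mice, the values were 241, 187 and 65.8 FPKM at 4-weeks and 2.17, 1.20 and 3.74 FPKM at 32-weeks, a 69.4-fold lower mean (-5.50, SE 0.54, adjusted p = 0.000211). With each of the 6 libraries left out in turn, both calls were kept. BM-AΦ, sequenced at 32-weeks, had 0.503 to 4.05 FPKM of Cxcl10, overlapping the TR-AΦ of that age. Cxcl9, a neighbour gene of the same class, stood at 0.800 to 4.86 FPKM over all 18 AΦ libraries and did not pass the test over time.

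Cxcl13 and Cxcl16 did not pass the test over time in TR-AΦ. Cxcl13 was at 2.06, 1.29 and 5.01 FPKM at 4-weeks and 0.250, 0 and 0.353 FPKM at 32-weeks in FA (log2 change -1.55, SE 0.69, limma adjusted p = 0.385), and at 3.17, 2.39 and 18.01 FPKM and then 1.69, 0 and 0.972 FPKM in PM2.5 (-1.89, SE 0.69, adjusted p = 0.212). Neither pair of groups overlapped, but the share of all genes without overlap was not counted over time, so this has no background beside it. Cxcl16 in PM2.5 went from 9.33, 10.2 and 42.4 FPKM to 5.27, 7.24 and 3.59 FPKM, also without overlap (-1.47, SE 0.56, adjusted p = 0.223). Without PM2.5 replicate 2 of 4-weeks the PM2.5 changes were -1.11 for Cxcl13 and -0.80 for Cxcl16. In FA, Cxcl16 was at 12.3, 8.38 and 21.995 FPKM at 4-weeks and overlapped the 6.80, 5.004 and 11.2 FPKM of 32-weeks.

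**Figure D2:**
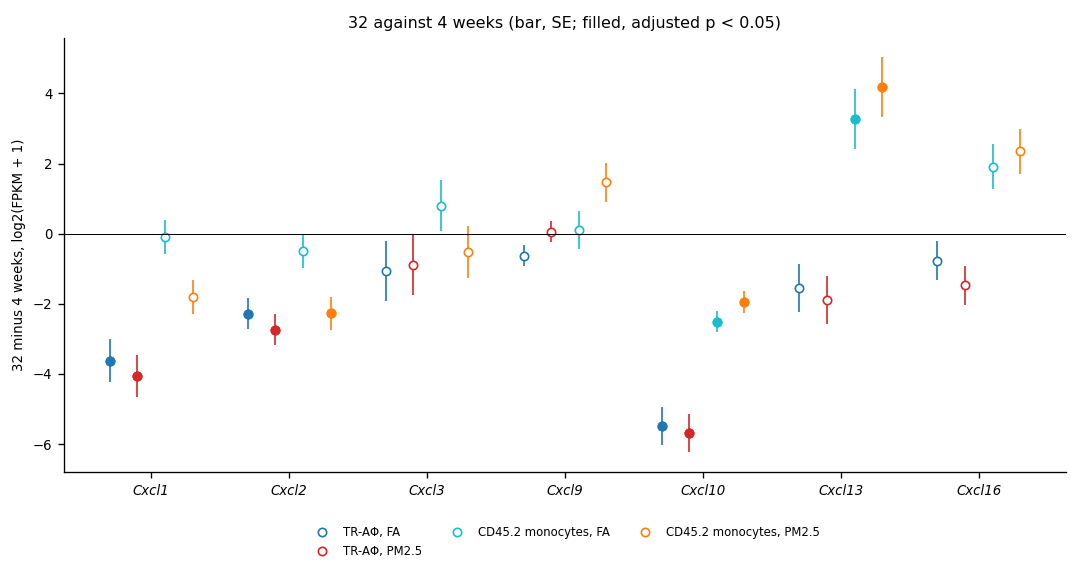
Change from 4-weeks to 32-weeks of the 7 tested members, on the log2(FPKM + 1) scale, in TR-AΦ and CD45.2 monocytes of FA and PM2.5 mice, with bars of 1 SE and filled points for an adjusted p under 0.05. Cxcl10 fell in all 4 comparisons, Cxcl1 fell in TR-AΦ, and Cxcl13 rose in monocytes.

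In CD45.2 monocytes Cxcl10 also fell and Cxcl13 rose, in FA and in PM2.5 mice, and Cxcl2 fell in PM2.5 mice. This was 2 of 7 members in FA, where 7.21% of 12856 genes were called, and 3 of 7 in PM2.5, where 2.42% were called. Cxcl10 was at 112, 77.2 and 60.9 FPKM at 4-weeks and 13.9, 11.9 and 14.3 FPKM at 32-weeks in FA mice. In PM2.5 mice it was at 87.1, 49.8 and 58.0 FPKM at 4-weeks and 9.49, 22.3 and 17.8 FPKM at 32-weeks. The groups did not overlap at either exposure. Its mean was 6.23-fold lower in FA (log2 change -2.51, SE 0.31, limma adjusted p = 0.00108) and 3.93-fold lower in PM2.5 (-1.95, SE 0.31, adjusted p = 0.00624).

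Cxcl13 in FA monocytes was at 12.2, 6.62 and 0 FPKM at 4-weeks and at 51.0, 41.6 and 40.2 FPKM at 32-weeks. In PM2.5 monocytes it was at 3.53, 4.25 and 0 FPKM at 4-weeks and at 29.7, 101 and 44.2 FPKM at 32-weeks. The 2 libraries at 0 were the 4-week libraries numbered 2, which carried the neutrophil transcripts. The log2 change was 3.27 in FA (SE 0.85, limma adjusted p = 0.0310) and 4.18 in PM2.5 (SE 0.85, adjusted p = 0.0226). With both of these libraries left out, a choice made after the data were seen, it was 2.16 in FA (adjusted p = 0.0501) and 3.42 in PM2.5 (adjusted p = 0.0234).

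The Cxcl13 calls rested on few mice. In FA, the call was kept without 4-week replicate 0 alone, and the change without each library ran from 2.16 to 4.03. Without 4-week replicate 1 or 2, or 32-week replicate 0, 1 or 2, the changes were 3.63, 2.16, 3.17, 3.31 and 3.34, with adjusted p of 0.0533, 0.125, 0.114, 0.0685 and 0.0629. In PM2.5 the call was lost without 4-week replicate 2 (3.42, adjusted p = 0.102) or 32-week replicate 1 (3.69, adjusted p = 0.136).

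Some interstitial macrophage transcripts rose over the same time as Cxcl13. Of 11 markers of these cells, 4 rose in FA monocytes and 3 in PM2.5 monocytes between 4-weeks and 32-weeks, and none fell. Their summed level was 494 to 1225 FPKM at 4-weeks, 975 to 1744 FPKM in CD45.1 monocytes and 1537 to 4105 FPKM in CD45.2 monocytes of 32-weeks. Cd163, a haemoglobin scavenger receptor, had the largest rise in FA, at 5.18 on the log2 scale, followed by Lyve1, a hyaluronan receptor, at 4.02, and Folr2, a folate receptor, at 3.33. In the list are Ccr2 and Cx3cr1, which the monocyte list also holds. Other marker lists moved too. Of 11 AΦ markers tested, 3 rose and 3 fell in FA monocytes and 4 rose in PM2.5 monocytes, with Ear1 at 4.24 and 4.16. Of 12 monocyte markers, 4 fell in FA, Treml4 among them at -3.31, and 0 were called in PM2.5. Cd4 rose by 3.48 and 3.09 and Siglech, a plasmacytoid dendritic cell marker, by 2.35 and 2.93. The part of these transcripts in the Cxcl13 and Cxcl16 values was not tested.

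**Figure D3:**
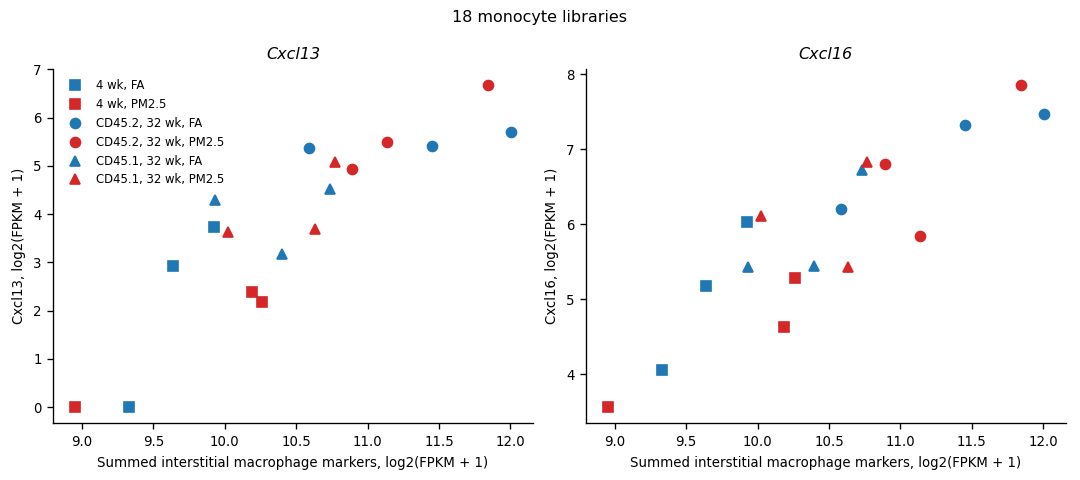
Level of Cxcl13 (left) and Cxcl16 (right) in the 18 monocyte libraries against the summed level of 11 interstitial macrophage markers, both as log2(FPKM + 1), with squares for 4-weeks, circles for CD45.2 and triangles for CD45.1 monocytes of 32-weeks, and FA in blue and PM2.5 in red. The 4-week library numbered 2 of each exposure sits at the lower left, and the CD45.2 libraries of 32-weeks sit at the right.

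Cxcl2 in PM2.5 monocytes was at 728, 756 and 556 FPKM at 4-weeks and at 151, 244 and 71.7 FPKM at 32-weeks, without overlap. The mean was 4.37-fold lower (log2 change -2.28, SE 0.48, limma adjusted p = 0.0268). In FA monocytes it was at 574, 574 and 345 FPKM at 4-weeks and at 359, 255 and 448 FPKM at 32-weeks, where the groups overlapped (-0.49, SE 0.48, adjusted p = 0.628). The PM2.5 call was lost without 4-week replicate 0, 1 or 2 (-2.22, -2.19 and -2.41, with adjusted p of 0.0657, 0.0786 and 0.0737) and without 32-week replicate 2 (-1.81, adjusted p = 0.0765). Without both 4-week libraries numbered 2 the adjusted p was 0.0811.

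Cxcl16 in CD45.2 monocytes did not pass the threshold over time. Its groups did not overlap, but how many of all genes did the same over time was not counted. Libraries of FA mice had 64.0, 35.1 and 15.5 FPKM at 4-weeks and 177, 159 and 72.4 FPKM at 32-weeks (log2 change 1.92, SE 0.64, limma adjusted p = 0.0900). Those of PM2.5 mice had 37.8, 23.7 and 10.8 FPKM at 4-weeks and 111, 231 and 56.2 FPKM at 32-weeks (2.35, SE 0.64, adjusted p = 0.0687). Zmynd15, which overlaps its exons, was at 0.0449 to 0.948 FPKM in the same monocytes at 4-weeks and 1.93 to 9.16 FPKM at 32-weeks. Cxcl1 in PM2.5 monocytes was at 60.5, 66.3 and 38.7 FPKM at 4-weeks and at 8.48, 30.1 and 12.04 FPKM at 32-weeks (-1.81, SE 0.49, adjusted p = 0.0653). In FA monocytes it was at 39.6, 40.4 and 26.4 FPKM at 4-weeks and at 41.2, 23.6 and 34.96 FPKM at 32-weeks (-0.10, SE 0.49, adjusted p = 0.961).

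The change over time differed between TR-AΦ and CD45.2 monocytes for 4 of the 7 members, where 7.88% of 13307 genes tested were called. The difference, as the mean change of both exposures in TR-AΦ minus that in monocytes, was -2.89 for Cxcl1 (SE 0.57, limma adjusted p = 0.00157) and -3.37 for Cxcl10 (SE 0.45, adjusted p = 4.3e-05). It was -5.44 for Cxcl13 (SE 0.80, adjusted p = 7.77e-05) and -3.25 for Cxcl16 (SE 0.62, adjusted p = 0.00121). For Cxcl2 it was -1.12 (SE 0.47, adjusted p = 0.159). All 4 calls were kept with each of the 24 libraries left out in turn and with the 4-week monocyte libraries numbered 2 left out.

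The order of levels over the 12 groups differed by gene. For Cxcl10, the 4-week AΦ and monocytes had means of 65.0 to 165 FPKM, the 32-week monocytes 9.41 to 16.5 FPKM and the 32-week AΦ 0.968 to 2.82 FPKM, and these 3 sets of libraries did not overlap. For Cxcl1, 4-week TR-AΦ stood above the next group, the 4-week monocytes of PM2.5 mice, without overlap. Cxcl13 was highest in 32-week CD45.2 monocytes, at means of 44.2 FPKM in FA and 58.4 FPKM in PM2.5, and the next group, CD45.1 monocytes of PM2.5 mice, had 18.8 FPKM, with its highest library below the lowest FA library of the first and above the lowest PM2.5 library. Every other pair of neighbours in the orders of the 8 genes overlapped.

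At 4-weeks, Cxcl1 and Cxcl3 were higher in TR-AΦ than in monocytes. That was 2 of 7 members, in a comparison where 48.2% of genes were called, so the share does not exceed the background. Over both exposures, the mean of Cxcl1 was 4.07-fold higher (log2 difference 1.99, SE 0.40, n = 6 and 6, limma adjusted p = 0.000163). Cxcl3, at 5.83 to 34.0 FPKM in AΦ and 0.231 to 3.04 FPKM in monocytes, had a 12.1-fold higher mean (2.66, SE 0.58, adjusted p = 0.000383). Cxcl10 gave 0.68 (SE 0.32, adjusted p = 0.0811) and Cxcl16 -0.82 (SE 0.44, adjusted p = 0.129). Without the 4-week monocyte libraries numbered 2, Cxcl16 gave -1.31 with an adjusted p of 0.0232, and it also passed without PM2.5 TR-AΦ replicate 2 (-1.16, adjusted p = 0.0295). Cxcl10 passed without FA TR-AΦ replicate 2 (0.96, adjusted p = 0.0109).

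At 32-weeks, Cxcl10, Cxcl13 and Cxcl16 were higher in monocytes than in AΦ of the same origin. In the CD45.2 cells 4 of 7 members were called, with 47.3% of all genes called, and in the CD45.1 cells 3 of 7, with 50.9%, so neither share stands out from the background. Cxcl13 was at 0 to 1.69 FPKM in TR-AΦ and 29.7 to 101 FPKM in CD45.2 monocytes, a 94.3-fold difference in the means (log2 difference -5.07, SE 0.57, limma adjusted p = 2.33e-08). Cxcl16 was at 3.59 to 11.2 FPKM in TR-AΦ and 56.2 to 231 FPKM in monocytes (-4.07, SE 0.44, adjusted p = 1.33e-08), and Cxcl10 differed 8.96-fold (-2.68, SE 0.32, adjusted p = 7.81e-08). All 11 interstitial macrophage markers were higher in these monocytes than in TR-AΦ. Among them are Ccr2 and Cx3cr1, which the monocyte list also holds. The part of these markers in the difference was not tested.

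Cxcl3 was the member higher in TR-AΦ than in CD45.2 monocytes at 32-weeks (log2 difference 1.55, SE 0.58, limma adjusted p = 0.0294), with ranges that overlapped. Its call was lost in 6 of 12 leave-one-out fits, at 1.28 to 1.48 with adjusted p of 0.0557 to 0.0900: without TR-AΦ FA replicate 2, TR-AΦ PM2.5 replicate 1 or 2, monocyte FA replicate 0 or 1, or monocyte PM2.5 replicate 2. Cxcl1 gave -0.90 (SE 0.40, adjusted p = 0.0693) and Cxcl2 -0.70 (SE 0.33, adjusted p = 0.0856). Both passed without TR-AΦ FA replicate 2 (-1.31 with an adjusted p of 0.00423, and -0.94 with 0.0216). Cxcl1 also passed without monocyte PM2.5 replicate 0 (-1.08, adjusted p = 0.0399) and Cxcl2 without monocyte PM2.5 replicate 2 (-0.94, adjusted p = 0.0226).

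In the CD45.1 cells, Cxcl13 was at 0 to 3.58 FPKM in BM-AΦ and 8.07 to 33.1 FPKM in monocytes (log2 difference -2.89, SE 0.57, limma adjusted p = 0.000113). Cxcl10 was 4.25-fold lower in BM-AΦ (-1.82, SE 0.32, adjusted p = 2.84e-05). Cxcl16, at 11.1 to 42.9 FPKM in BM-AΦ and 41.9 to 113 FPKM in monocytes, was 2.43-fold lower (-1.22, SE 0.44, adjusted p = 0.0220), and only 1 BM-AΦ library reached the lowest monocyte library. Its call was lost without BM-AΦ FA replicate 1 (-0.94, adjusted p = 0.0866), monocyte FA replicate 0 (-1.01, adjusted p = 0.0701) or monocyte PM2.5 replicate 1 (-1.05, adjusted p = 0.0659). Cxcl1 gave 0.94 (SE 0.40, adjusted p = 0.0531) and passed without BM-AΦ FA replicate 1 or PM2.5 replicate 0, or without monocyte FA replicate 2 or PM2.5 replicate 1 (1.06 to 1.21, adjusted p of 0.0155 to 0.0430).

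Between AΦ of different origin at 32-weeks, no member passed the threshold, and 0.316% of genes did. Cxcl16 came nearest: BM-AΦ of FA mice had 42.9, 11.1 and 35.6 FPKM and those of PM2.5 mice 24.1, 29.6 and 26.4 FPKM, and TR-AΦ of FA mice had 6.80, 5.004 and 11.2 FPKM and those of PM2.5 mice 5.27, 7.24 and 3.59 FPKM. The mean was 4.34-fold higher in BM-AΦ (log2 difference 1.93, SE 0.39, n = 6 and 6, limma adjusted p = 0.0596), and 5 of 6 BM-AΦ libraries lay above the highest TR-AΦ library. Without BM-AΦ FA replicate 1 it was 2.21 with an adjusted p of 0.0206. It also passed with the replicate number as a block (adjusted p = 0.0324) and with only the groups compared (0.0435). Summed interstitial macrophage markers were 55.0 to 388 FPKM in BM-AΦ, lowest in that FA replicate 1, and 29.6 to 84.6 FPKM in TR-AΦ, with 0 of 10 tested markers called and a median difference of 1.65. Their part in the Cxcl16 difference was not tested. Between CD45.1 and CD45.2 monocytes no member passed either, and 0.669% of genes did. The differences were -1.23 for Cxcl1 (SE 0.35, adjusted p = 0.155), -1.53 for Cxcl13 (SE 0.60, adjusted p = 0.384) and -0.92 for Cxcl16 (SE 0.45, adjusted p = 0.563). Of the interstitial macrophage markers, Cd163, Folr2 and Lyve1 were lower in CD45.1 monocytes (-3.57, -3.32 and -2.75). The sums of the whole list overlapped, at 975 to 1744 FPKM in CD45.1 and 1537 to 4105 FPKM in CD45.2 monocytes.

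Exposure to PM2.5 did not move any of the 7 members past the threshold in any of the 6 populations. The share of all genes called was 0.0079% in TR-AΦ at 4-weeks, 0% in TR-AΦ at 32-weeks, 0.0158% in BM-AΦ, 0.00778% in 4-week monocytes, 0% in CD45.2 monocytes and 0% in CD45.1 monocytes of 32-weeks (limma). At an unadjusted p under 0.05 there was 1 member in TR-AΦ at 4-weeks, 2 in CD45.2 monocytes and 2 in CD45.1 monocytes of 32-weeks, and 0 in the other 3 populations. The share of all genes at that threshold was 2.94% in TR-AΦ at 4-weeks, 3.13% in TR-AΦ at 32-weeks, 2.05% in BM-AΦ, 2.12% in 4-week monocytes, 4.25% in CD45.2 and 4.74% in CD45.1 monocytes. Only limma was run on these comparisons.

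The largest differences were in 32-week monocytes, where Cxcl2 was lower in PM2.5. In CD45.1 monocytes Cxcl2 was at 141, 267 and 372 FPKM with FA and at 79.2, 125 and 41.1 FPKM with PM2.5 (log2 difference -1.69, SE 0.48, limma unadjusted p = 0.0033, adjusted p = 0.946). In CD45.2 monocytes it was at 359, 255 and 448 FPKM with FA and at 151, 244 and 71.7 FPKM with PM2.5 (-1.31, SE 0.48, unadjusted p = 0.0158, adjusted p = 1). In both, the FA and PM2.5 libraries did not overlap, and Cxcl2 was the 1 such member of 7, beside 8.89% and 6.39% of all genes. Cxcl1 gave -1.19 (SE 0.49) in CD45.1 and -1.09 (SE 0.49) in CD45.2 monocytes, with ranges that overlapped.

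Cxcl9 was the other member with separate ranges. In 4-week monocytes it was at 2.26, 1.49 and 1.89 FPKM with FA and at 1.19, 0.416 and 0.211 FPKM with PM2.5 (log2 difference -0.88, SE 0.55), and 6.57% of genes had separate ranges there. In 4-week TR-AΦ, where 5.82% of genes did, it was at 4.86, 3.28 and 2.56 FPKM with FA and at 0.870, 1.89 and 1.92 FPKM with PM2.5 (limma unadjusted p = 0.0141, adjusted p = 1). Cxcl13 in the same TR-AΦ rested on replicate 2 of PM2.5: at 0.89 over all libraries (SE 0.69), the difference was 0.11 without it. No member had separate ranges in TR-AΦ (5.98% of genes) or BM-AΦ (6.44%) of 32-weeks. There, the largest differences were -0.83 for Cxcl10 in TR-AΦ (SE 0.54) and -0.77 for Cxcl2 in BM-AΦ (SE 0.43).

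**Figure D4:**
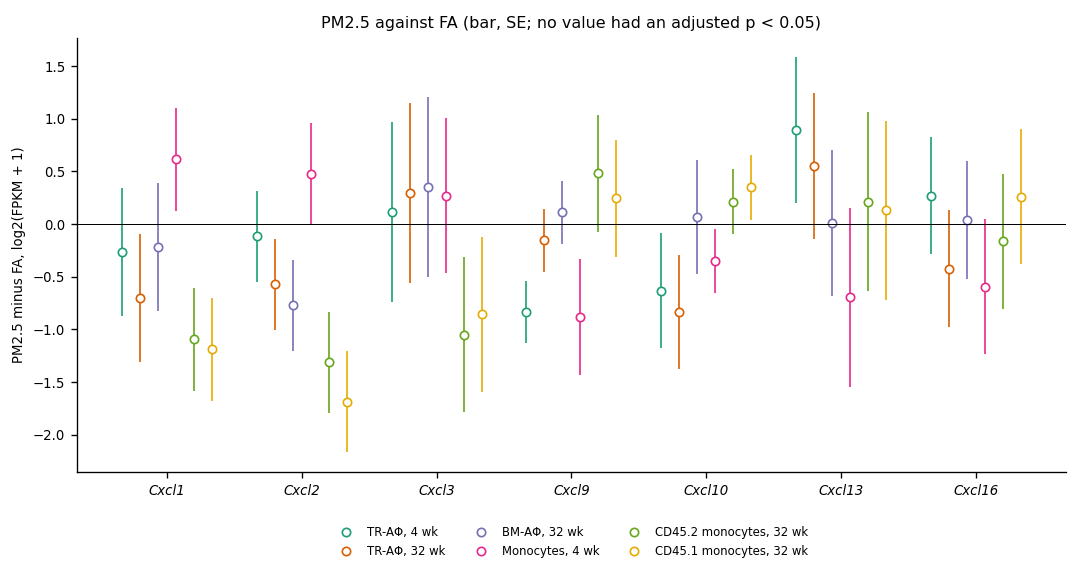
Difference between PM2.5 and FA of the 7 tested members on the log2(FPKM + 1) scale in the 6 populations, with bars of 1 SE. No value had an adjusted p under 0.05, and the lowest is Cxcl2 in CD45.1 monocytes of 32-weeks at -1.69.

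Whether the PM2.5 difference changed with time in TR-AΦ, or between BM-AΦ and TR-AΦ, was also tested. No member passed in either, and 0.0079% and 0.0158% of genes did. The adjusted p of the 7 members was 1 in both.

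Genes of the same pathways were read beside the family. The NF-kB response list, 24 target and feedback genes without the 8 chemokines, had 9 members that fell and 0 that rose in TR-AΦ of FA mice over time, and 10 that fell in PM2.5 mice. In CD45.2 monocytes 10 fell in FA and 6 in PM2.5. Tnf, the cytokine that starts the acute response, changed by -2.99 in FA and -3.15 in PM2.5 TR-AΦ on the log2 scale, and Tnfaip3, a feedback inhibitor of NF-kB, by -2.203 and -2.67. The median change of the list was -1.41 and -1.24 in TR-AΦ of FA and PM2.5 mice and -1.26 and -1.25 in monocytes. Without the 4-week monocyte libraries numbered 2, 1 gene of the list fell in PM2.5 monocytes. With values rescaled to TPM, a common sum per library, 9, 7, 4 and 6 genes fell in the 4 comparisons in the same order.

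Of 9 interferon response genes tested in TR-AΦ, Isg15 and Irf1 fell in FA (-2.45 and -1.96) and Irf1 fell in PM2.5 (-2.35). Of 18 tested in CD45.2 monocytes, Cmpk2 and Ifit1 fell in FA (-1.75 and -1.38), with 0 called after rescaling to TPM, and 0 passed in PM2.5. The median change of the tested interferon genes was -0.64 and -0.32 in TR-AΦ of FA and PM2.5 mice and -0.90 and -0.54 in monocytes. Of 15 immediate early and heat shock genes, which cell handling can raise, Egr1 and Ier2 fell in TR-AΦ over time in both exposures (Egr1 -2.34 in FA and -3.19 in PM2.5). Their summed level was 4441 to 7511 FPKM in 4-week and 2488 to 5228 FPKM in 32-week TR-AΦ. Their part in the fall of Cxcl1, Cxcl2 and Cxcl10 was not tested.

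**Figure D5:**
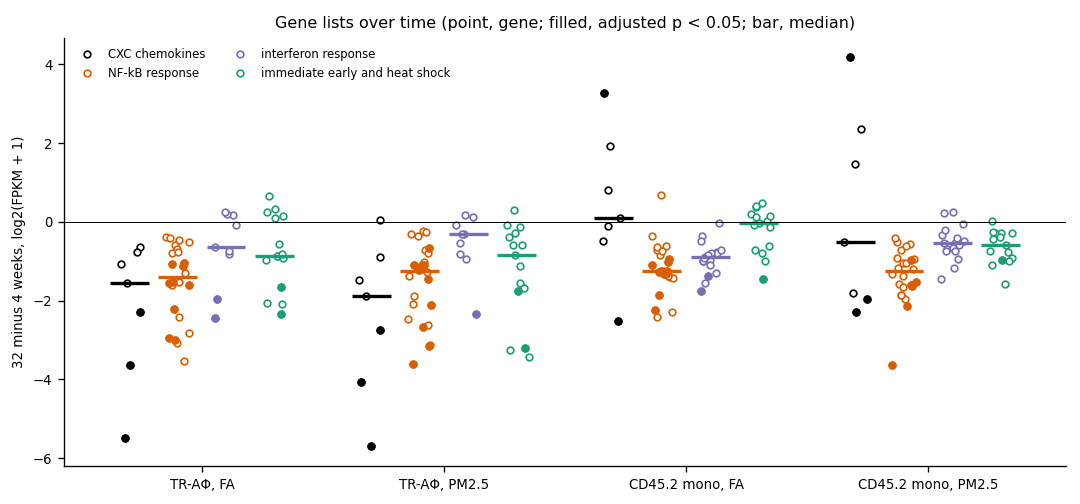
Change from 4-weeks to 32-weeks on the log2(FPKM + 1) scale of the tested CXC chemokines and of the genes of the NF-kB response, interferon response, and immediate early and heat shock lists, with a point for each gene, filled for an adjusted p under 0.05, and a bar at the median. The NF-kB medians lie between -1.41 and -1.24 in all 4 comparisons.

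Of 7 other CXC chemokine genes, 2 passed the filter. Pf4, the platelet chemokine that macrophages also make, rose in CD45.2 monocytes by 4.37 on the log2 scale in FA and 4.27 in PM2.5, and was lower in CD45.1 than in CD45.2 monocytes at 32-weeks (-2.82). Cxcl14 rose in the same monocytes by 1.52 and 1.53. Cxcl5, another neutrophil attractant, was at 0 in every library but 1, where it was at 0.262 FPKM. Cxcl11, the third interferon-inducible ligand of Cxcr3, was at most 0.567 FPKM, and Cxcl17 at most 0.419 FPKM.

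Among 8 receptor genes, Cxcr1, Cxcr2 and Cxcr4 passed the filter, and none was called over time or with PM2.5. Cxcr4, the receptor of Cxcl12, was lower in AΦ than in monocytes in the 3 cell comparisons (-2.35 at 4-weeks, -2.003 in CD45.2 and -2.03 in CD45.1 cells at 32-weeks), and Cxcr1 was higher in AΦ (2.42, 2.97 and 4.00). Cxcr2, the receptor of Cxcl1, Cxcl2 and Cxcl3, was at 15.1 and 37.6 FPKM in the 4-week monocyte libraries numbered 2 and at most 1.34 FPKM in the other monocytes. Adam10 and Adam17, which release Cxcl16, were not called over time, with PM2.5 or between origins.

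Cxcl15 was at 0 in 8 of 18 AΦ libraries and 7 of 18 monocyte libraries, with a highest value of 0.873 FPKM in AΦ and 2.21 FPKM in monocytes. The libraries above 1 FPKM were the 4 numbered 2 of 32-week monocytes, 2 from FA and 2 from PM2.5 mice, at 1.34 to 2.21 FPKM. The summed level of 10 epithelial markers was 5.15 to 42.7 FPKM in monocytes and 68.2 to 200.3 FPKM in AΦ.

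The genes most like each member were found by Pearson r of log2(FPKM + 1) over the 18 libraries of a cell type, as a description, since the libraries share groups and sequencing. In AΦ, Cxcl1 was most like Nfkbiz (r = 0.98), Ccrl2 (0.98) and Ereg (0.98), Cxcl2 like Tnfaip3 (0.99), Ereg (0.97) and Nfkbia (0.97), and Cxcl10 like Il23a (0.98), Tnf (0.96) and Clec12b (0.95). Cxcl16 in AΦ was most like Runx3 (0.95), Sash1 (0.94) and Ahr (0.94), and Cxcl13 was like Maf (0.93) and Sdc4 (0.87). Cxcl3 reached 0.88 with Susd6, and Cxcl9 0.76 with Dis3. Among the members themselves r was 0.96 for Cxcl1 and Cxcl2, 0.92 for Cxcl1 and Cxcl10, and 0.90 for Cxcl2 and Cxcl10.

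In monocytes, Cxcl13 was most like Mrc1 (0.98), Dab2 (0.98) and C3ar1 (0.96), and Cxcl16 like Dst (0.99), Cd81 (0.97) and Col14a1 (0.97). Cxcl13 and Cxcl16 had an r of 0.92 with each other. Cxcl2 was most like Nlrp3 (0.92), Hmox1 (0.92) and Cxcl1 (0.91), and Cxcl10 like Ppp1r15a (0.93), Atf4 (0.93) and Tuba1c (0.92). Cxcl3 reached 0.87 with Vmp1, and Cxcl9 0.84 with Gm28530.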

How the data were processed

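RNA-seq was made from AΦ and monocytes sorted from mouse lungs, 3 libraries in each of 12 groups. The authors trimmed the reads with TrimGalore, aligned them with STAR to mm10 guided by GENCODE and computed the deposited FPKM with Cufflinks. FPKM are scaled for depth and transcript length, hold no counts, and no precision can be given from counting. A value of 0 can be a failed estimate. There were 0 columns of per-sample values left unused. Cuffdiff, the study's test, needs the reads and was not run.

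The limma package (3.58.1, R 4.3.3) was run on log2(FPKM + 1), with 1 mean per group and a variance trend, in separate models for AΦ (12665 genes), monocytes (12856) and both (13307), where genes whose mean fell below 1 FPKM were dropped. In each of 18 comparisons p were adjusted by Benjamini-Hochberg over all genes tested, and an adjusted p under 0.05 was called. Fold changes understate those of low genes. Where groups are said not to overlap, the ranges of their libraries were compared. The share of all genes without overlap was counted for the PM2.5 comparisons only. That 4-week monocytes are CD45.2 cells is taken from the study's methods. Tables were made in Python 3.11.15 with pandas 2.3.3, and the procedure was tested on simulated data.

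Every comparison was run for all tested members, and the text names them with up to 3 called genes per list with the largest change and the 3 genes most like each member, of which some are not reported here. The members and gene lists were chosen with earlier results of these data known. Alternatives were a pseudocount of 0.1, no filter, TPM, quantile normalization, only the groups compared, a replicate block, and leaving out each library. Leaving out the 4-week monocyte libraries numbered 2 was added after the data were seen. Promoters of 7 of 8 members were found in the RefSeq table.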

Additional observations from a re-analysis of the deposited data

Results flagged for a closer look

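For 4 members the change from 4-weeks to 32-weeks differed between TR-AΦ and CD45.2 monocytes by a test of the difference itself (limma, 12 libraries a cell type, both exposures). Of all 13307 genes tested, 7.88% were called in it, and this share is also the background of the marker count below. The difference was -2.89 on the log2(FPKM + 1) scale for Cxcl1, which fell in TR-AΦ and was not called in monocytes. It was -3.37 for Cxcl10, which fell in both cell types. For Cxcl13, which rose in monocytes and was not called in TR-AΦ, it was -5.44. For Cxcl16, not called over time in either, it was -3.25. Some interstitial macrophage markers rose over time in the same monocytes, and 9 of the 11 differed between the cell types over time in the same direction. Their part in the Cxcl13 and Cxcl16 values was not tested.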

How the results depend on the processing

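Of the 24 member values past the threshold, the settings other than leaving out a single library kept the call in 137 of 155 fits and reversed none. Modelling only the groups compared left 0 members called over time in FA TR-AΦ, 1 in FA monocytes and 0 in PM2.5 monocytes, and called 1 (Cxcl16) between BM-AΦ and TR-AΦ. It also lost Cxcl1 in PM2.5 TR-AΦ (adjusted p = 0.125). Without a filter, Cxcl2 in FA TR-AΦ (0.0615) and Cxcl3 between CD45.2 cells at 32-weeks (0.0515) were lost, and with a pseudocount of 0.1 Cxcl13 in PM2.5 monocytes (0.0818). In FA monocytes, 1 member was called with a pseudocount of 0.1, with no filter, and without the 4-week libraries numbered 2. In PM2.5 monocytes, 1 was called with no filter. TPM and quantile normalization each called 4 members between cell types at 4-weeks, beside 6370 and 6429 of all 13307 genes. Both settings turned Cxcl1 over time in FA monocytes, which was not called, to 0.124 and 0.0683. TPM moved the median of all genes by 0.17, 0.11 and 0.29 in the cell comparisons (4-weeks, CD45.2 and CD45.1), and after rescaling Cxcl16 was not called in CD45.1 cells (-0.81, adjusted p = 0.102).

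Leaving out 1 library at a time called 1 to 3 members over time in FA TR-AΦ, 1 to 2 in FA and 1 to 3 in PM2.5 monocytes, 0 to 1 between BM-AΦ and TR-AΦ and 2 to 5 between CD45.1 cells. Values that were not called and changed sign ran from -0.29 to 0.12 for Cxcl1 over time in FA monocytes, from -0.21 to 1.13 for Cxcl3 with PM2.5 in BM-AΦ and from -0.0507 to 1.04 for Cxcl9 with PM2.5 in CD45.2 monocytes.

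Counts over all genes moved more. Over time in FA TR-AΦ, PM2.5 TR-AΦ, FA monocytes and PM2.5 monocytes they were 99, 133, 927 and 311, and 14, 18, 145 and 18 with only the groups compared, a setting with fewer samples. Without the 4-week monocyte libraries numbered 2 they were 600 and 64 in monocytes. TPM gave 81 in PM2.5 TR-AΦ, and no filter 201 in PM2.5 monocytes. Between origins, AΦ gave 40 genes and 69 with only the groups compared, and monocytes 86, with 136 without a filter and 52 with only the groups compared. With PM2.5 the counts of 0 to 2 genes became at most 11. The cause of these moves was not tested.

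Replicate numbers are shared by the groups. Deviations from the group means were compared over 60 pairs of libraries with the same number in compared groups. Their r was -0.0879 to 0.21, over 0.1 in 6. By the size of r alone, the numbers were not taken as pairs. In 35 of the 60, both libraries of a pair matched each other best among the libraries of their groups. How many such matches would arise without any link was not computed, and a batch shared by number was not tested. Pairs across exposures or across times come from different mice, and such matches were found among them too. The highest r, 0.21, was in such a pair, replicate 2 of PM2.5 and FA monocytes at the earlier time. The count therefore cannot tell whether some libraries share a mouse. The replicate block gave 197, 381, 1473 and 618 genes over time in the order above, 85 between AΦ origins and 144 between monocyte origins. It added Cxcl16 over time in FA and PM2.5 monocytes (adjusted p = 0.00808 and 0.00716) and between BM-AΦ and TR-AΦ (0.0324; 1 member called), and Cxcl1 between CD45.1 cells (0.0456). The cause was not tested. The unknown depth of FPKM limits what can be said of Cxcl9 and Cxcl15.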
